A study of Mus musculus with 6 samples.

Results

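CpG methylation was described at the promoters of the natriuretic peptide genes Nppa and Nppb, listed as NPPA and NPPB in the files. The members were the CpG cytosines of the 4 amplified regions of these genes (2 regions per gene) with at least 10 calls in every sample. They were 33 of the 314 CpG sites that passed this minimum in the whole series, in 4 of 26 measured regions and 2 of 15 genes. Nppa held 17 of them and Nppb 16, and all CpG sites of the 4 regions passed.

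The study asked how DNA methylation at promoters of cardiac genes responds to knockdown of DNMT1, the maintenance methyltransferase, which copies CpG methylation onto the new strand after DNA replication. Cardiomyocytes, the contractile cells of the heart, came from ventricles of CD-1 mouse embryos (an outbred strain) at embryonic day 13.5 and were transfected in culture with 12 nM of siRNA. One group (n = 3) received negative siRNA and the other (n = 3) DNMT1 siRNA, a pool of 4 siRNAs against Dnmt1, and both were collected after 72 h. Genomic DNA was converted with bisulfite, after which an unmethylated cytosine is read as T and a methylated one as C, so that the methylation level of a cytosine is the percent of its calls that are C. Ventricles of a litter were pooled, both groups were cultured and transfected in the same way, and VCAM1-positive cells were collected on magnetic columns, so each value is an average over many cells and embryos. The labels do not say whether the 3 replicates of a group came from separate litters, and the spread between these samples, which may be technical, is what the tests over replicates measure. The titles of the negative siRNA samples all end in a bracketed number, unlike those of the other group. Its meaning is not given, and whatever it marks cannot be told apart from the treatment. Methylation of 15 promoters does not allow the labelled cell type to be checked against marker genes, and the level of Dnmt1 in these cultures was not analysed here.

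Nppa encodes the precursor of atrial natriuretic peptide, and Nppb that of brain natriuretic peptide. Both are hormones that the heart secretes when its walls are stretched, and they act through guanylyl cyclase receptors to promote salt and water excretion and to relax blood vessels. The genes lie side by side in the genome, are expressed in the embryonic ventricle, fall there after birth and return in hypertrophy and heart failure, for which they are the usual markers of the fetal gene programme.

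The 4 regions were placed on mouse chromosome 4 of GRCm38.p6, plus strand, where every listed cytosine matched (110, 110, 85 and 112 in the order that follows). Distances are counted from the GENCODE vM21 transcription start, with minus for upstream. Nppa region 1 (chr4:148000521-148000962) ran from −201 to 240 and so crossed the start into exon 1, with 11 CpG sites. Nppa region 2 (chr4:148000192-148000566) ran from −530 to −156, with 6 sites. Nppb region 1 (chr4:147985284-147985629) ran from −504 to −159 with 10 sites, and Nppb region 2 (chr4:147984632-147985035) from −1156 to −753 with 6. Region 1 is thus the proximal and region 2 the distal one in both genes. RefSeq places the Nppb start 112 bp further downstream, and the Nppa starts of the 2 annotations are identical.

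None of the regions was rich in CpG. The ratio of observed to expected CpG was 0.330 in Nppa region 1, 0.175 in Nppa region 2, 0.360 in Nppb region 1 and 0.221 in Nppb region 2. In windows of the same size and position at the protein-coding genes of the genome, the median number of CpG was 21, 6, 6 and 4. The count of 11 in Nppa region 1 exceeded that of 36.5% of such windows, and the count of 10 in Nppb region 1 exceeded that of 66.6%.

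The stretches that hold the sites described are printed 5′ to 3′ on the plus strand, with each measured CpG in capitals. The first set covers Nppa from the upstream CpG pairs through the start into exon 1, where low and high sites lie close together, along with the most methylated pair of its distal region.
Nppa distal pair, −292 and −288, chr4:148000418-148000446: agaatcctgaggCGagCGcccaggaagat
Nppa upstream, 5 CpG from −142 to −1, chr4:148000572-148000722: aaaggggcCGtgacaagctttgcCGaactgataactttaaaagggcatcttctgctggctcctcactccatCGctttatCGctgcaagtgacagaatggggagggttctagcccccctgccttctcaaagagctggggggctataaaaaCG
Nppa exon 1, CpG +29, chr4:148000741-148000761: gagacagtgaCGgacaaaagc
Nppa exon 1, CpG +92, +99 and +106, chr4:148000808-148000837: tcagatCGtgcccCGacccaCGccagcatg
Nppa exon 1 coding, CpG +148 and +201, chr4:148000860-148000934: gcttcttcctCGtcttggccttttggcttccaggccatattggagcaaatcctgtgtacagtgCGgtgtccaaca

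The second set covers all CpG sites of Nppb, from the methylated distal region to the nearly unmethylated proximal one.
Nppb distal, CpG −1116, chr4:147984662-147984682: aacatgggtcCGagaggccca
Nppb distal, 5 CpG from −929 to −786, chr4:147984851-147985011: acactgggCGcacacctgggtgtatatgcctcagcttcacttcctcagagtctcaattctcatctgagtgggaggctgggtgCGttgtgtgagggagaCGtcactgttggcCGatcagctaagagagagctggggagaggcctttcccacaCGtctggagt
Nppb proximal, 10 CpG from −460 to −209, chr4:147985322-147985587: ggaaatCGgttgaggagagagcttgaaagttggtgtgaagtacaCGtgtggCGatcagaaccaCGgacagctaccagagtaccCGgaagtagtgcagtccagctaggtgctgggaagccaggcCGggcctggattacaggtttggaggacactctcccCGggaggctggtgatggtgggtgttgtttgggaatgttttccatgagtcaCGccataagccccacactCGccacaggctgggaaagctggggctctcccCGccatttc

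With negative siRNA, each gene had a more methylated and a sparsely methylated region. The sparsely methylated ones, Nppa region 2 and Nppb region 1, covered almost the same distances from the GENCODE start (−530 to −156 and −504 to −159). With the RefSeq start of Nppb, which lies 112 bp further downstream, the distances match less closely. The others, Nppa region 1 (−201 to 240) and Nppb region 2 (−1156 to −753), covered distances largely not measured in the other gene. In Nppa region 1 the exon 1 sites averaged 60.6% and the 5 upstream sites 22.2%. The Nppb site nearest to the start lay at −209. The mean over the 11 sites of Nppa region 1 was 44.8%, 37.6% and 47.0% in replicates 1, 2 and 3 (43.1 ± 4.92, SD, n = 3), and that of Nppa region 2 was 8.23%, 7.26% and 11.4% (8.95 ± 2.15). The mean of Nppb region 1 was 4.39%, 3.52% and 5.04% (4.32 ± 0.763), and that of Nppb region 2 was 60.7%, 51.7% and 57.2% (56.5 ± 4.56). In every negative siRNA replicate the order of the regions was Nppb region 2, Nppa region 1, Nppa region 2 and Nppb region 1, with no overlap between neighbours.

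Within Nppa region 1 the level tended to be higher further downstream, from 9.97% at CpG −142 to 90.5% at CpG +201 in the coding part of exon 1 (Pearson r = 0.88, Spearman rho = 0.88 over 11 sites of the same amplified fragments). A dip at CpG −1, the site at the start itself, interrupted this gradient at 13.5% ± 3.04. Within Nppb region 2 the level was lower nearer to the gene, from 91.7% at CpG −1116 to 23.6% at CpG −786 (r = −0.90 over 6 sites). These correlations describe neighbouring sites read on the same molecules, which are not independent.

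**Figure D1:**
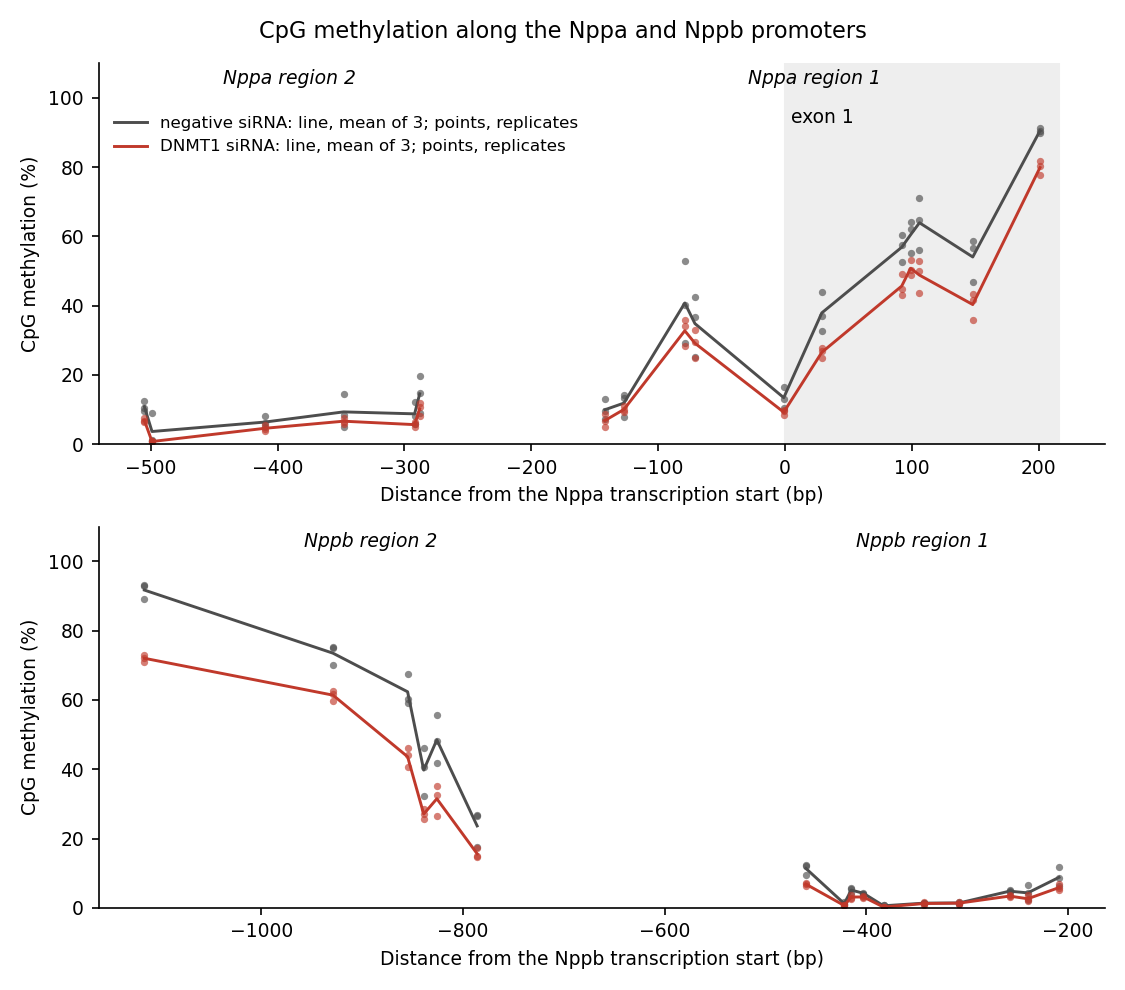
CpG methylation (percent, vertical axis) against the distance from the transcription start in bp (horizontal axis) for Nppa (top) and Nppb (bottom). Points are the 3 replicates of each siRNA group, lines join the group means within a region, and grey shading marks exon 1 of Nppa. The DNMT1 siRNA line runs below the negative siRNA line at all 33 sites, with the widest gaps in exon 1 of Nppa and in Nppb region 2. Over the whole series the mean was lower at 252 of 314 tested sites.

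After DNMT1 siRNA the mean level was lower at 33 of 33 sites, beside 252 of all 314 tested sites. A site was called lower when a logistic regression of the methylated and unmethylated calls on group, with a likelihood-ratio test, gave a Benjamini-Hochberg adjusted p under 0.05 over all 314 sites and the pooled methylation differed by more than 5 percentage points. By this rule 14 of the 33 sites were lower (42.4%) and 0 were higher, beside a background of 37.6% of all tested sites. Among the 25 member sites above 5% with negative siRNA, which alone had room for such a difference, 14 were called (56.0%), beside a background of 70.7%. The called sites were 8 of 17 in Nppa and 6 of 16 in Nppb, and the differences of their group means ran from −5.66 to −19.7 points. All called sites lay in Nppa region 1 (8 of 11) and Nppb region 2 (6 of 6).

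The logistic regression treats every call as independent, although calls are PCR copies without molecular identifiers, and it takes no account of the spread between replicates. That spread exceeded counting error at these genes. The dispersion, the ratio of the spread between replicates to that expected from counting, had a median of 66.8 over the 33 sites, beside 8.07 over all 314. The ratio rises with the number of calls. Member sites had a median of 11434 to 21587 calls per library, beside 6739 to 8710 over all tested sites. The median dispersion was 132 in Nppa and 29.2 in Nppb, and from 1.54 (Camta2) to 247 (Tnnt2) in the other genes. Tests that use the replicate spread therefore called fewer sites (adjusted p under 0.05 and the same difference). A quasi-binomial F test called 4 of the 33 sites (background 20.7%), 1 in Nppa and 3 in Nppb. Limma on the log2 ratio of methylated to unmethylated calls called 5 (background 23.2%), 1 in Nppa and 4 in Nppb. All of these were among the 14, and another 7 of the 14 had a limma adjusted p between 0.05 and 0.1. Limma with the replicate number as a block called 3 (background 13.7%), namely Nppa CpG +201 and Nppb CpG −1116 and −855.

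The replicates of the groups did not overlap, with all 3 DNMT1 siRNA values below all 3 negative siRNA values, at 20 of the 33 sites, beside a background of 43.9% of all tested sites. They were 9 of 17 in Nppa and 11 of 16 in Nppb, and 16 of the 25 member sites above 5% with negative siRNA. Of the 167 tested sites of the series above 5%, at least 96 were of this kind, counting called sites alone. In the other genes such sites ran from 1 of 52 in Camta1 to 13 of 13 in Myh7. Of the 14 called sites 12 were of this kind, beside 96 of the 118 called sites of the series. The 2 called member sites with overlapping replicates were the pair at −79 and −71 of Nppa.

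**Figure D2:**
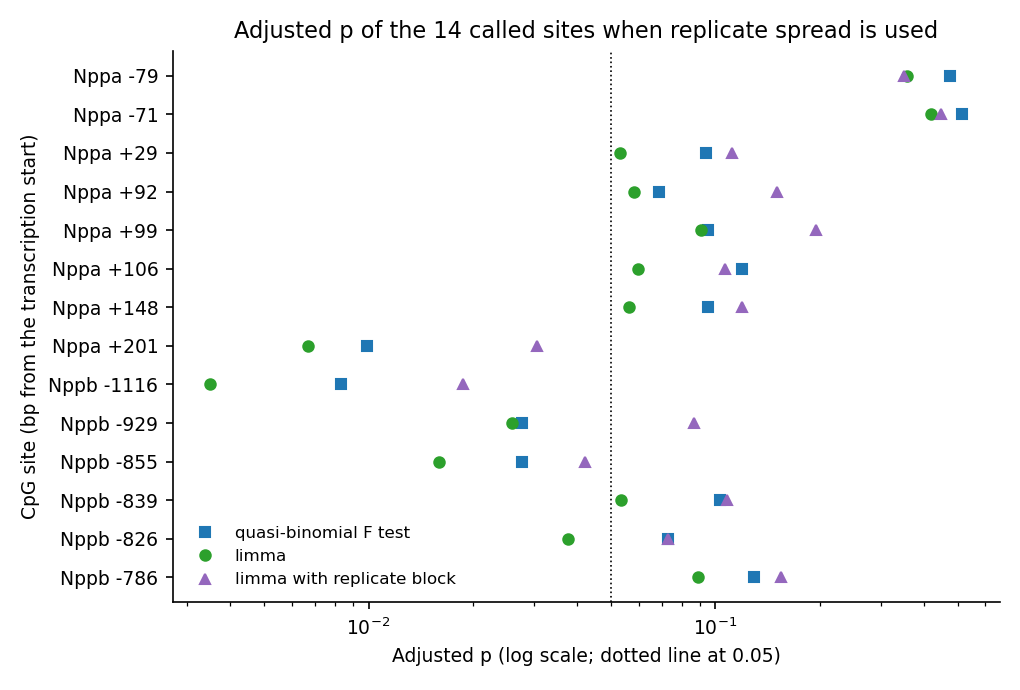
Benjamini-Hochberg adjusted p (horizontal axis, log scale) of the 14 sites called by logistic regression (vertical axis, gene and distance from the start in bp) in 3 tests that use the replicate spread: quasi-binomial (squares), limma (circles) and limma with the replicate number as a block (triangles). Symbols left of the dotted line at 0.05 passed: Nppa +201, Nppb −1116 and Nppb −855 did so in all 3 tests.

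Exon 1 held the largest change of Nppa in points. All 6 exon sites were called with non-overlapping replicates, and their mean fell from 60.6% ± 4.44 to 48.7% ± 2.83. As a share of the negative siRNA level, exon 1 retained 80.3%. The 5 upstream sites of region 1 retained 79.5%, and all 11 upstream Nppa sites 74.8%. The site nearest the end of the region, CpG +201 in the coding sequence, read 91.1%, 89.7% and 90.5% with negative siRNA and 77.7%, 81.6% and 80.3% with DNMT1 siRNA. The groups stood well apart, with a narrow spread in each. The difference of the means was −10.6 points (SE 1.22, adjusted p = 9.6e-91 by logistic regression, 0.0099 by quasi-binomial test, 0.00668 by limma and 0.0307 by limma with the replicate block). It was the only Nppa site called by the tests that use the replicate spread.

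The largest fall in Nppa was at CpG +106, in the 5′ untranslated part of exon 1, just before the start codon. It read 64.7%, 56.0% and 71.1% with negative siRNA and 43.6%, 52.8% and 50.0% with DNMT1 siRNA. The groups did not overlap, but the gap between negative siRNA replicate 2 and DNMT1 siRNA replicate 2 was small beside the range within each group. The difference of the means was −15.1 points (SE 5.16), with an adjusted p of 0.119 by the quasi-binomial test and 0.0596 by limma. The differences at the other exon 1 sites were −11.4 points (CpG +29), −11.2 (+92), −9.67 (+99) and −13.7 (+148), with limma adjusted p of 0.0532, 0.0582, 0.0911 and 0.0562 respectively.

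The 5 sites of Nppa region 1 upstream of the start had a mean of 22.2% ± 5.56 with negative siRNA and 17.6% ± 2.23 with DNMT1 siRNA. The pair at −79 and −71, which lies 8 bp apart, was far more methylated than its neighbours. CpG −79 read 40.2%, 29.2% and 52.9% with negative siRNA and 28.3%, 36.0% and 34.0% with DNMT1 siRNA, so that negative siRNA replicate 2 fell within the DNMT1 siRNA values. Its dispersion of 1346 was the largest of the members. It was called lower (−7.99 points), but limma gave an adjusted p of 0.357, and the call was lost without negative siRNA replicate 3. CpG −71 was called at −5.66 points with overlapping groups (limma adjusted p = 0.419), and its call was lost without negative siRNA replicate 1, without negative siRNA replicate 3 or without DNMT1 siRNA replicate 1.

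The remaining upstream sites of region 1 stayed below the 5-point limit. CpG −127 had the smallest difference of the region, with 14.2%, 7.98% and 13.5% with negative siRNA and 9.78%, 10.9% and 9.45% with DNMT1 siRNA (−1.84 points, limma adjusted p = 0.542). The least methylated site, CpG −142, read 9.52%, 7.40% and 13.0%, then 5.08%, 8.89% and 6.63% (−3.11 points, limma adjusted p = 0.221). Both overlapped between groups, whereas CpG −1 did not, at 16.6%, 10.6% and 13.1% against 8.33%, 9.90% and 9.59% (−4.18 points, limma adjusted p = 0.125).

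Nppa region 2 stayed low, between 3.70% and 14.6% with negative siRNA and between 0.811% and 10.3% with DNMT1 siRNA, and 0 of its 6 sites were called by the logistic regression, with or without adjustment, by the quasi-binomial test or by limma. With no difference limit the logistic regression passed all 6, limma passed CpG −505 (adjusted p = 0.0443), and the lowest quasi-binomial adjusted p was 0.0539. The highest site and the one with the largest fall was CpG −288, which read 14.8%, 9.08% and 19.8% with negative siRNA and 8.25%, 10.6% and 11.9% with DNMT1 siRNA. The groups overlapped (−4.32 points, limma adjusted p = 0.302), and without negative siRNA replicate 2 the pooled difference was −7.11 points and the site was called, while without negative siRNA replicate 3 it was −1.16, beside −3.90 with all libraries. CpG −410 changed least in points, from 6.19%, 4.97% and 8.11% to 3.88%, 4.50% and 5.51% (−1.80 points, limma adjusted p = 0.215). Its pooled difference was −1.72 points with all libraries and −0.839 without negative siRNA replicate 3.

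At CpG −499 of Nppa a single library set the difference. It read 1.26%, 8.93% and 0.91% in negative siRNA replicates 1, 2 and 3, against 0.823%, 0.844% and 0.766% after DNMT1 siRNA. The pooled difference was −2.96 points with all libraries and −0.276 without negative siRNA replicate 2. The neighbouring CpG −505, 6 bp away, read 10.4%, 9.62% and 12.6%, then 6.59%, 6.39% and 7.68% (−3.98 points, limma adjusted p = 0.0443), and its negative siRNA replicate 2 did not stand apart.

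Nppb region 2 showed the largest changes of both genes in points. The extreme distal site, CpG −1116, was the most methylated member and had the largest fall, reading 93.1%, 89.2% and 92.7% with negative siRNA and 72.1%, 72.8% and 71.0% with DNMT1 siRNA. The groups stood far apart, by −19.7 points (SE 1.34), with an adjusted p of 0.00834 by the quasi-binomial test, 0.0035 by limma and 0.0187 by limma with the replicate block. CpG −855 read 67.5%, 59.2% and 60.3%, then 44.1%, 46.0% and 40.7% (−18.7 points, SE 3.04), with adjusted p of 0.0277, 0.0159 and 0.042 in the same tests.

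The next largest fall was at CpG −826, with 55.7%, 41.7% and 48.0% against 32.7%, 35.3% and 26.5% (−17.0 points). It passed limma (adjusted p = 0.0376) but not the quasi-binomial test (0.0732). CpG −929 fell by 12.1 points from a mean of 73.5% and passed both tests without the block (0.0259 and 0.0277). CpG −839 fell by 12.7 points from 39.7%, with adjusted p of 0.0534 by limma and 0.103 by the quasi-binomial test.

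The site of this region nearest to the gene, CpG −786, was the least methylated and changed least in points. As a share it retained 66.0% of its negative siRNA level, beside 64.9% to 83.5% over the sites of the region. It read 26.8%, 17.6% and 26.5% with negative siRNA and 14.7%, 17.2% and 14.9% with DNMT1 siRNA, so that the replicates numbered 2 almost met. The difference was −8.04 points (SE 3.13, limma adjusted p = 0.0891). It also had the fewest calls of all member sites, from 714 to 1196 per library.

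The proximal region of Nppb was almost unmethylated, from 0.584% to 11.4% with negative siRNA and from 0.221% to 6.83% with DNMT1 siRNA, and 0 of its 10 sites were called by the logistic regression, with or without adjustment, by the quasi-binomial test or by limma. With no difference limit the logistic regression passed 9 of them, limma passed CpG −460, and the quasi-binomial test passed CpG −460, −403 and −258. The most methylated site, CpG −460, came closest to a call. It read 12.1%, 9.58% and 12.4% with negative siRNA and 6.39%, 7.0% and 7.10% with DNMT1 siRNA, without overlap. The pooled difference was −4.75 points, below the limit of 5, while the adjusted p was 0.0277 by the quasi-binomial test and 0.0278 by limma. Without negative siRNA replicate 2 the pooled difference was −5.41 points and the site was called.

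Other sites of the proximal Nppb region had little methylation to lose. CpG −308 read 1.70%, 1.21% and 1.32%, then 1.24%, 1.68% and 1.15% (−0.0494 points, logistic adjusted p = 0.233), and was the single member that did not pass without the difference limit. CpG −383, the least methylated member, read 0.191%, 0.695% and 0.868%, then 0.248%, 0.278% and 0.138%. These levels compare with 0.137% to 0.151% of C outside CpG in the same region with negative siRNA, the level that incomplete conversion can reach.

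The regions were then compared as means over their sites. After DNMT1 siRNA, Nppa region 1 stood at 31.9%, 37.0% and 34.8% (−8.59 points, SE 3.20) and Nppb region 2 at 41.7%, 43.7% and 40.0% (−14.7 points). Nppa region 2 stood at 5.07%, 5.85% and 6.55% (−3.13 points, but −1.92 without negative siRNA replicate 3), and Nppb region 1 at 2.75%, 3.05% and 2.72% (−1.48 points). In all 4 regions the groups did not overlap, beside a background of 76.9% of the 26 regions. With means weighted by calls, the groups overlapped in Nppa region 1 (−7.46 points, exact permutation p = 0.2) and Nppa region 2 (−2.81 points, exact permutation p = 0.3), and did not in the Nppb regions. For the unweighted mean of each region the two-sided exact permutation test gave p = 0.1, the smallest value that 3 against 3 allows (Benjamini-Hochberg 0.124 over 26 regions). By size of the fall they ranked 13, 20, 21 and 5 of 26 in the order Nppa region 1, Nppa region 2, Nppb region 1 and Nppb region 2.

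**Figure D3:**
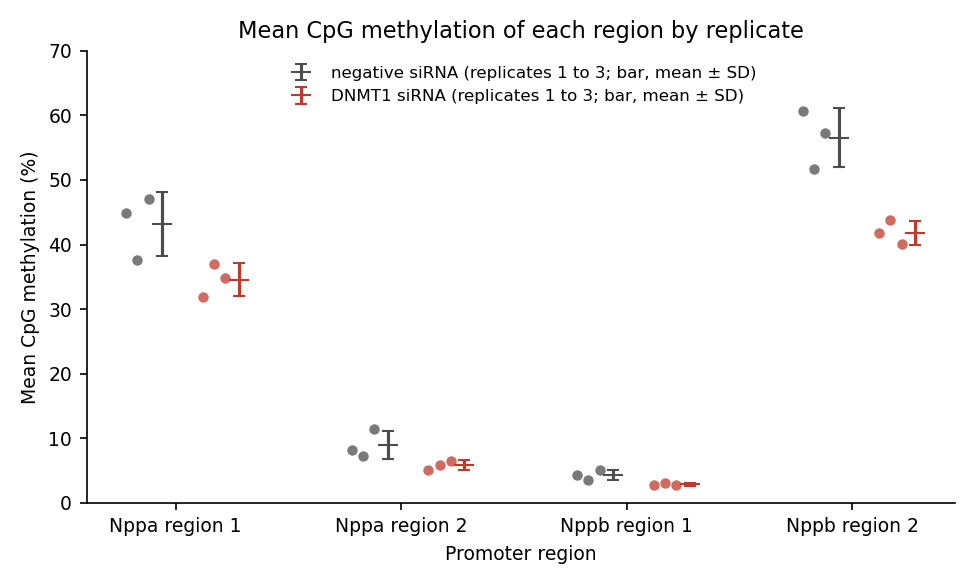
Mean CpG methylation (percent) over the sites of each region, with replicates 1 to 3 as points from left to right and the mean ± SD as a bar, for negative siRNA (grey) and DNMT1 siRNA (red). All 3 DNMT1 siRNA points lie below all 3 negative siRNA points in each region, and negative siRNA replicate 2 is the lowest of its group in all 4.

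The proximal and distal regions of Nppb changed by different amounts in points. The difference between region 1 and region 2 went from −52.2 to −39.0 points, without overlap between groups (change of 13.2 points, SE 2.55, exact permutation p = 0.1, adjusted p = 0.183 over the 11 genes with both regions measured). For Nppa it went from 34.2 to 28.7 points, and the groups overlapped (change of −5.46 points, SE 2.32, exact permutation p = 0.2, adjusted p = 0.314). On a ratio scale both comparisons changed sign, with a log2 change of 0.29 for Nppa and −0.16 for Nppb (exact permutation p = 0.2 each).

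Between the genes, the difference of the methylated regions, Nppa region 1 minus Nppb region 2, went from −13.4 to −7.29 points without overlap (change of 6.12 points, SE 2.16, exact permutation p = 0.1, adjusted p = 0.2 over 2 contrasts between genes). As a log2 ratio the change was 0.12 with overlapping groups (exact permutation p = 0.2). The difference of the sparsely methylated regions, Nppa region 2 minus Nppb region 1, went from 4.64 to 2.98 points (exact permutation p = 0.2).

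As a share of the negative siRNA level, Nppa region 1 retained 80.1% of its methylation, Nppb region 2 74.0%, Nppb region 1 65.8% and Nppa region 2 65.0%. The 20 regions of the series above 5% with negative siRNA retained 61.4% to 86.4%, with a median of 75.5%. The log2 change of each region against the mean of the other regions above 5% was 0.078 for Nppa region 1 (exact permutation p = 0.7), −0.21 for Nppa region 2 (p = 0.4) and −0.043 for Nppb region 2 (p = 0.6), with adjusted p of 0.824, 0.727 and 0.824 over the 20 regions. A difference from the other promoters was not detectable with 3 replicates per group.

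Across the 33 sites the fall in points followed the level with negative siRNA (Pearson r = −0.90, Spearman rho = −0.93). The points share libraries, fragments and, through the negative siRNA mean, one term of the difference, so that the correlation is a description. The most methylated site of each gene started from a similar level. Nppa CpG +201 fell by 10.6 points from 90.5% and Nppb CpG −1116 fell by 19.7 points from 91.7%, the former retaining 88.3% and the latter 78.5%, and the difference between these sites was not tested. The distance to the nearest CpG showed little relation to the fall (r = −0.36, rho = −0.06).

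**Figure D4:**
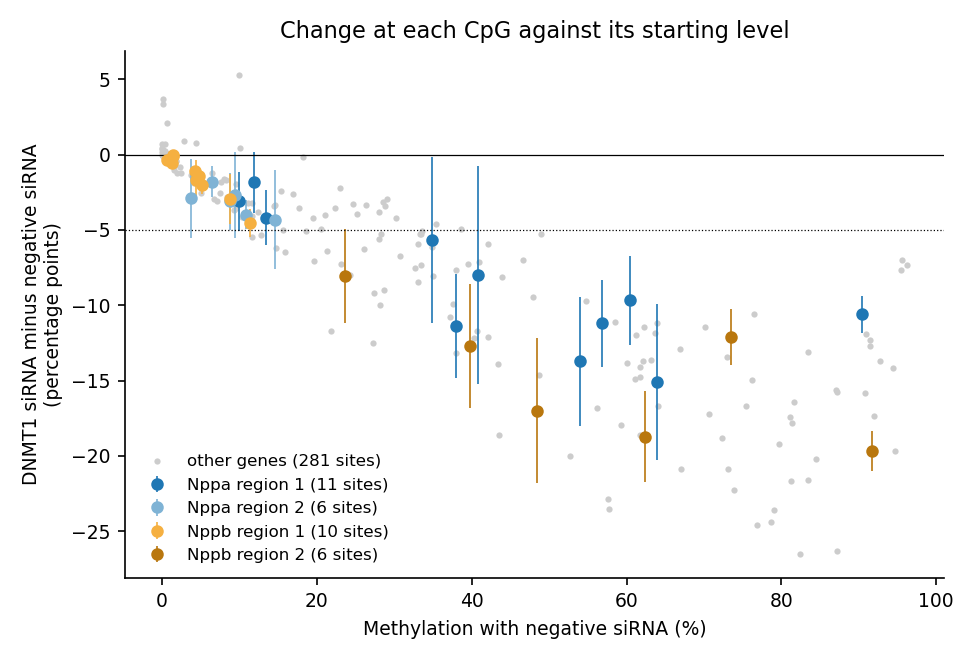
Change in methylation (DNMT1 siRNA minus negative siRNA, percentage points, vertical axis) against the level with negative siRNA (percent, horizontal axis) for the 33 sites of Nppa (blue) and Nppb (orange), with the standard error of the difference as bars, and for the 281 sites of other genes (grey, without bars). The solid line marks no change and the dotted line −5 points, and the member sites lie within the cloud of the other genes, below 0.

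The replicates of a group were ordered alike along these promoters. Negative siRNA replicate 2 was the lowest of its group at 28 of 33 sites, among them 11 of 11 in Nppa region 1, and DNMT1 siRNA replicate 2 was the highest at 24 of 33, again with 11 of 11 in Nppa region 1. At the level of region means, negative siRNA replicate 2 was the lowest in 4 of 4 Nppa and Nppb regions and in 6 of the 17 regions of other genes above 5%, and DNMT1 siRNA replicate 2 was the highest in 3 of 4 and in 14 of 17. Without negative siRNA replicate 2 the called sites rose from 8 to 11 in Nppa (with CpG −1, −348 and −288) and from 6 to 7 in Nppb (with CpG −460). Without negative siRNA replicate 3, the highest of its group in 3 of the 4 regions, Nppa had 6 called sites.

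The regions of other genes whose means were most alike over the 6 libraries, by the root mean square difference, were a region of the troponin C gene Tnnc1 for Nppa region 1 (3.81 points) and a region of the beta myosin heavy chain gene Myh7 for Nppa region 2 (0.866 points). They were a region of Mef2d, a transcription factor gene, for Nppb region 1 (1.95 points) and of Cdkn1a, the gene of the cell cycle inhibitor p21, for Nppb region 2 (4.02 points). Likeness here means only a similar level in each library.

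Nppa and Nppb are reactivated in the stressed mouse ventricle with Myh7, the fetal myosin heavy chain gene, while Myh6, the adult one, declines. Beside the background of 37.6% of all tested sites, 31 of the 53 sites of these 4 genes were lower and 0 higher (58.5%). Myh6 and Myh7 alone had 17 of 20 sites lower (85.0%). Above 5% with negative siRNA, where the background was 70.7%, 31 of 44 sites of the 4 genes were lower (70.5%), close to that background. Among these, the myosin genes had 17 of 19 sites lower and Nppa and Nppb 14 of 25, and this difference was not tested. Of the 71 sites of 6 sarcomere genes (Myh6, Myh7, Myh7b, Tnnc1, Tnni3 and Tnnt2) 63 were lower (88.7%), and above 5% 63 of 66 (95.5%). The counts for the transcription regulators Mef2c, Mef2d, Camta1 and Camta2 were 14 of 127, and for the cyclin-dependent kinase inhibitor genes 27 of 83, with 0 higher in either list. Most regulator sites were not above 5% with negative siRNA. Above 5% the counts were 14 of 17 (82.4%) for the regulators and 27 of 59 (45.8%) for the inhibitor genes, beside the background of 70.7%.

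The sequence around the sites was searched on both strands for short motifs of cardiac and general factors. A match describes letters, not a bound factor. TGACG, the core of the cyclic AMP response element, contained the CpG in 3 regions: at Nppa CpG +29 (in 30.6% of windows of the same size and position at 21932 protein-coding genes), at Nppa CpG −348 (16.0%) and at Nppb CpG −839 (11.8%). CpG +29 and −839 were among the called sites and −348 was not. CACGTG, an E-box that also counts as a match to CANNTG, held the nearly unmethylated Nppb CpG −422 (5.67% of windows), which read 1.01%, 1.02% and 1.64%, then 0.759%, 0.704% and 0.545%. The GC box GGGCGG held Nppa CpG −410 (21.1% of windows), 3 bp from a match to the SRF CArG box (2.01%), the element bound by serum response factor.

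Motifs without a CpG were also present. The GATA letters AGATAA occurred once, in Nppa region 2 (18.0% of windows), 9 bp from CpG −288. AAGTG, the core of the NKX2-5 site, occurred in both Nppa regions (56.2% and 58.0% of windows) and in Nppb region 2 (64.1%). In Nppa region 1 it overlapped a match to CANNTG and lay 6 bp from the variable CpG −71. CATTCC, the TEAD site, occurred in Nppb region 1 alone (17.5% of windows). AGGTGT, a T-box sequence, occurred in Nppa region 2 (19.4%), where one match overlapped a CANNTG, and in Nppb region 2 (22.0%). CANNTG itself occurred 2, 5, 1 and 4 times in Nppa region 1, Nppa region 2, Nppb region 1 and Nppb region 2, and in 79.1% to 87.8% of windows. Apart from the E-box at −422, no member CpG lay inside any of these matches.

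The 6 libraries held 26793215 to 32253280 cytosine calls, of which the 4 regions took 16.0% to 25.6%. Member sites had 714 to 65470 calls per library, and the 95% Wilson interval of a single value reached at most 2.77 points to either side, with a median of 0.496. Intervals cover counting error only. Nppa region 1 had the fewest calls in DNMT1 siRNA replicate 3, with a mean of 10611 per CpG beside 21205 to 34570 in the other libraries.

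Outside CpG, where methylation is rare in such cells and C reports mainly incomplete conversion, the 4 regions were near 0 in both groups. With negative siRNA the share of C was 0.159% to 0.223% in Nppa region 1, 0.171% to 0.204% in Nppa region 2, 0.137% to 0.151% in Nppb region 1 and 0.156% to 0.172% in Nppb region 2. The groups overlapped in every region, with exact permutation p of 0.6, 0.7, 0.7 and 0.5 (n = 3 per group). The differences between the group means were 0.0317, 0.0465, 0.00249 and −0.0039 points in the same order.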

How the data were processed

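Per the labels, the authors treated DNA with bisulfite, amplified 2 regions for each of 15 genes and sequenced the tagmented products. The submitters' processing notes name FastQC, Bismark, Bowtie2 and mm10, with versions not given in the sources used here. The deposited files give, for each cytosine, the number of calls (a count) and the percent of them read as C or T, per replicate. PCR copies are counted as separate calls, so that p-values from counts are too small, and incomplete conversion raises all levels.

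The methylated count of a site was the deposited percent times the deposited count. Regions were placed on GRCm38.p6 by their cytosine positions and contexts. Sites needed 10 calls in every sample. The main test was logistic regression with a likelihood-ratio test, adjusted by Benjamini-Hochberg over 314 sites, with a difference of over 5 points. Alternatives were quasi-binomial and limma tests (pseudocount 1), the replicate block, other minimums and difference limits, drawing each site to 100 calls, weighting, conversion correction and leaving out each replicate. Region means were tested by exact permutation (two-sided, 20 relabellings). The tests were tested on simulated data. Python 3.11.15, statsmodels 0.14.6, scipy 1.17.1, R 4.3.3 and limma 3.58.1 were used. Sites named in each region by rule are those with the largest and smallest fall and the highest and lowest level, and the others in the text were chosen after their values were seen. The members and gene lists were chosen with earlier results of these data known. Expression data were not used here.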

Additional observations from a re-analysis of the deposited data

Results flagged for a closer look

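Outside CpG, 2 libraries stood above the range of the negative siRNA replicates, at cytosines that the comparisons of CpG sites do not use. In Nppa region 1, DNMT1 siRNA replicate 3 had 0.293% of C outside CpG (95% Wilson interval 0.282 to 0.304), above the highest upper bound of a negative siRNA replicate, 0.228%. It was also the library with the fewest calls there. In Nppa region 2, DNMT1 siRNA replicate 1 had 0.340% (0.327 to 0.354), above 0.214%. The other 2 DNMT1 siRNA replicates lay at 0.165% and 0.193% in region 1 and at 0.175% and 0.177% in region 2. In region 1 a single CHH cytosine held 13.7% of the methylated calls outside CpG of that library, and it read up to 3.55% in other libraries. In region 2 no cytosine held more than 3.01% of them. With each sample corrected for its own share of C outside CpG, the CpG difference went from −8.59 to −8.63 points in Nppa region 1 and from −3.13 to −3.18 points in Nppa region 2, still without overlap between groups.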

How the results depend on the processing

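The count of lower sites depended on the test and on the difference limit, while the means of the 4 regions were lower at every setting. With no limit, 0 of the 33 member sites were higher by the logistic regression, beside 24 of all 314 sites. Against 8 sites in Nppa, 6 in Nppb and 118 in all, the quasi-binomial test called 1, 3 and 65, limma 1, 4 and 73, a limit of 10 points 5, 5 and 74, and no limit 17, 15 and 207. The comparison of the proximal with the distal region reversed as a log2 ratio, to 0.29 for Nppa and −0.16 for Nppb. With means weighted by calls, the groups came to overlap in Nppa region 1 (−7.46 points) and Nppa region 2 (−2.81 points). Drawn to 100 calls per site, the mean of Nppb region 1 changed by −0.767 points with overlapping groups (exact permutation p = 0.4). Outside CpG, an unweighted mean over cytosines gave differences of −0.132 points in Nppa region 2, −0.0952 in Nppb region 1 and −0.350 in Nppb region 2, and the cause was not tested.

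The replicate numbers were not taken as pairs, since the labels do not say whether a number marks a shared litter or day. Same-numbered samples deviated together with r of −0.374, −0.0792 and 0.0127 over the 167 sites above 5%. Not every sample correlated best with its own number. Deviations from a mean of 3 constrain one another, and sites share fragments, so these correlations cannot decide whether the samples were paired. Over the 25 Nppa and Nppb sites above 5% the values were more mixed, at 0.188, −0.690 and 0.566. There only the replicates numbered 3 correlated best with each other. With the replicate block, limma called 1, 2 and 43 sites, and the logistic regression 8, 6 and 117. In the logistic regression the block changed no call of a member site. The exact sign-flip test over 3 pairs cannot go below p = 0.25.

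Leaving out each replicate gave 6 to 11 sites in Nppa, 6 to 7 in Nppb and 106 to 129 in all. The region means changed by −11.4 to −6.67 points in Nppa region 1, −3.98 to −1.92 in Nppa region 2, −1.87 to −1.11 in Nppb region 1 and −17.1 to −12.6 in Nppb region 2. The contrasts ranged from −7.38 to −4.24 (Nppa), 11.2 to 15.3 (Nppb) and 4.87 to 7.71 (Nppa region 1 minus Nppb region 2). The differences outside CpG ranged from −0.00630 to 0.0578, −0.00827 to 0.0742, −0.000946 to 0.00614 and −0.00856 to −0.0000944 points in the same order of regions.

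At the median member depth a count of 0 allows up to 0.0139% to 0.0262% methylation, and counting error reached at most 2.77 points, beside a median replicate SD over the 33 sites of 3.04 points (negative siRNA) and 0.890 points (DNMT1 siRNA). An exact permutation test of 3 against 3 cannot go below p = 0.1.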
